A study of Homo sapiens with 6 samples.

Results

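A set of 10 genes that NF-kB controls or that feed back on it was followed in HMV-II, a line of human mucosal melanoma cells of vaginal origin, after knockdown of EZH2. The genes were chosen by name, with earlier results of these data known, and the deposited table holds 30015 genes. The 10 are the chemokines CXCL8, CXCL1, CXCL2 and CCL2, the cytokines IL6, IL1B and LIF, the adhesion receptor ICAM1, and the inhibitors NFKBIA and TNFAIP3. CXCL2 was not analysed here. Of the 9 genes read from the table, 6 averaged 10 or more normalized counts over the libraries and were tested, among 15251 genes tested in all.

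Poly(A) RNA was sequenced from 3 Vector libraries and 3 shEZH2 libraries. The Vector cells are labelled WT and the shEZH2 cells EZH2 knockdown, and neither group received a treatment. By the study's methods, stable lines were made with lentiviral shRNA against EZH2 or a scrambled control shRNA and selected with puromycin, so both groups carry a vector. The table heads the knockdown columns sh1 and the control columns shNC, and holds 1 knockdown group, so an effect of the hairpin other than on EZH2 cannot be told apart from the loss of EZH2. The labels do not say whether replicates came from separate cultures, so p-values measure the spread between these libraries, which may be technical.

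NF-kB is a family of transcription factors held in the cytoplasm by IkB proteins until the IKK kinase complex marks those inhibitors for destruction. The freed dimers bind kappaB sites near their target genes. They switch on chemokines, cytokines and adhesion molecules together with NFKBIA and TNFAIP3, which then shut the signal down. In melanoma, secreted chemokines of this family are known for drawing in neutrophils and supporting growth and spread. EZH2 is the catalytic subunit of PRC2, which places the repressive mark H3K27me3.

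The tested members did not move together. LIF rose 2.28-fold in shEZH2 cells and CXCL8 fell to 0.554 of its Vector level, and the other 4 tested members did not pass the study's threshold, a fold change above 1.5 with p under 0.05 before adjustment. ICAM1 lay higher in every shEZH2 library, by less than 1.5-fold. CXCL1 and NFKBIA were nearly level between the groups in every library but Vector replicate 2, and TNFAIP3 overlapped between the groups. IL6 and CCL2 were near 0 in both groups, and IL1B was low. In RNA from whole cultures, fewer cells that make a transcript and less of it per cell cannot be told apart. Over all genes tested, 7.55% were higher and 7.07% lower at this threshold, which makes 14.6% in either direction, and the 2 calls among 6 members are read against that share. Without Vector replicate 2, LIF and CXCL8 again passed, against 12.8% of all genes.

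The proximal promoters of the members are shown first, because kappaB sites are the feature these genes are known for. The bearing of such sites on the values was not tested. The upstream bases below were taken from RefSeq promoters of GRCh38.p14, on the strand of each gene and ending 1 base before the transcription start. Of the 10 members, 8 had an entry, and CCL2 and LIF did not. Capitals mark matches, on either strand, to the kappaB consensus, to its 9-letter form GGAATTTCC, to the AP-1 motif TGANTCA and to the TATA box TATAAA. Overlapping matches run together.
CXCL8 (chr4:73740409-73740568, plus strand): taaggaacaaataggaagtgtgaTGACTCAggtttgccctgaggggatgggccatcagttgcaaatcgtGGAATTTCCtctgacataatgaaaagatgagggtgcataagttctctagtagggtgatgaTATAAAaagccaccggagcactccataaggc
CXCL1 (chr4:73869233-73869392, plus strand): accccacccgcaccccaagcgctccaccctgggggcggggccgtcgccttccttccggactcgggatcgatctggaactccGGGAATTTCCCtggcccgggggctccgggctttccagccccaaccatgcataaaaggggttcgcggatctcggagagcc
IL6 (chr7:22727040-22727199, plus strand): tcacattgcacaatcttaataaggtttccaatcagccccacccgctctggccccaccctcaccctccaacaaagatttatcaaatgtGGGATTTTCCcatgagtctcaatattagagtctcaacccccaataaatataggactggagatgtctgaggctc
ICAM1 (chr19:10270900-10271119, plus strand): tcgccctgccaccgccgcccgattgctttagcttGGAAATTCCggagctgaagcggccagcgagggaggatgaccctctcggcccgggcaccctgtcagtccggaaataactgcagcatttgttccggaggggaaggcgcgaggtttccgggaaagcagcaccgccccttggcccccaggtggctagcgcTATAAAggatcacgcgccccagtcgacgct
NFKBIA (chr14:35404750-35404909, minus strand): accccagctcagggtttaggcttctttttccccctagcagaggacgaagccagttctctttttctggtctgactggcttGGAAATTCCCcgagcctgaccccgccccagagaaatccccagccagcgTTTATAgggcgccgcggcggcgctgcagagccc
TNFAIP3 (chr6:137867099-137867258, plus strand): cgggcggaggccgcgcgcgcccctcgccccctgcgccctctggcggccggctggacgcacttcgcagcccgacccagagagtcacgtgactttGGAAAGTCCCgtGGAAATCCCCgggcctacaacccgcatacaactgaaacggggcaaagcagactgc

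The kappaB consensus occurred in 5 of the 8 member promoters (CXCL1, CXCL2, IL6, NFKBIA and TNFAIP3), within 250 bases before and 50 bases after the start. It occurred in 5.91% of all 35116 promoters. The form GGAATTTCC occurred in 5 of the 8 (CXCL1, CXCL2, CXCL8, ICAM1 and NFKBIA) and in 0.461% of all promoters. It was chosen after the promoters were read. TNFAIP3 held 2 consensus matches, at -67 to -58 and -55 to -46, and CXCL8 held its 9-letter match at -91 to -83. CXCL8 was the 1 member with an AP-1 match, at -137 to -131, against 7.71% of all promoters. A TATA box was read in CXCL8, ICAM1 and NFKBIA, against 11.5% of all promoters. In the plot of motif matches, the kappaB matches of CXCL1, IL6, NFKBIA and TNFAIP3 sit between -81 and -46, and that of ICAM1 lies farther out, at -186 to -178. These are matches of letters in a window and not measured sites of binding.

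**Figure D1:**
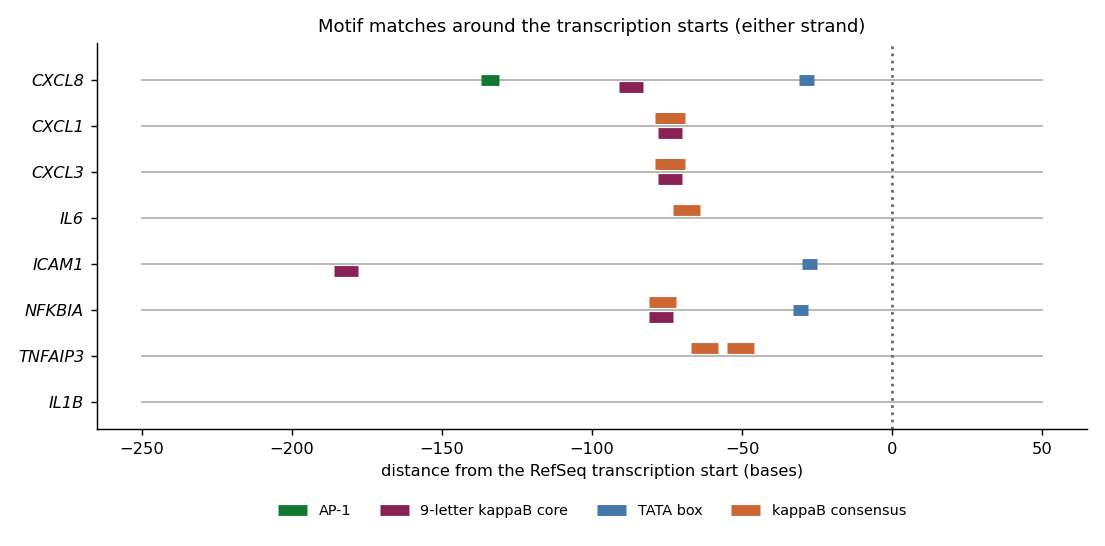
Matches of 4 motifs by distance from the RefSeq transcription start in bases, 1 line per gene, on either strand; coloured bars are matches. The kappaB matches lie between -91 and -46 in every gene shown that has one, except ICAM1 at -186 to -178, and the IL1B line has no bar.

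EZH2 itself was read first as a check of the labels. It had 483, 437 and 552 normalized counts in Vector replicates 1 to 3 and 237, 247 and 225 in shEZH2 replicates 1 to 3. Every shEZH2 library lay below every Vector library, and EZH2 fell by 1.04 in log2 units (standard error 0.14, limma adjusted p = 0.0142). With 1 library left out the limma adjusted p of EZH2 reached 0.129, without shEZH2 replicate 3. The cells expressed genes of the melanocyte lineage. Of these genes, 9 of 9 averaged 10 normalized counts or more, with PMEL, a pigment granule protein, the highest at 58732. These genes do not tell HMV-II from other melanoma lines. Depth ran from 13400290 to 19128939 counted reads. Vector replicate 2, the shallowest, stood apart along gene length. Its median log2 deviation from the mean of the other Vector libraries was -0.54 over the shortest and 0.42 over the longest of 5 equal classes of gene length. Where leaving it out ended a call or turned a direction, the value without it is given.

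CXCL8 encodes a chemokine that recruits neutrophils through CXCR1 and CXCR2. The gene lies on chromosome 4 from 73740506 to 73743716 of GRCh38, the build of the table's coordinates, on the plus strand. It had 617, 453 and 648 normalized counts in Vector replicates 1 to 3 and 273, 338 and 332 in shEZH2 replicates 1 to 3. Every shEZH2 library lay below every Vector library, and Vector replicate 2 was the lowest of its group. The mean was 572 ± 105 (SD, n = 3) across Vector libraries and 314 ± 35.8 (SD, n = 3) across shEZH2 libraries. CXCL8 fell by 0.85 in log2 units (standard error 0.18, 95% interval -1.28 to -0.43, limma adjusted p = 0.0476), while 1.84% of all genes were lower after adjustment. With Vector replicate 2 left out the log2 fold change was -1.01 (adjusted p = 0.000213), and with the trend along gene length removed from each library it was -1.06. With any other library left out the adjusted p passed 0.05, up to 0.197 without shEZH2 replicate 3.

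CXCL1 encodes a neutrophil chemokine of the same receptor, and its gene lies in the chemokine cluster of chromosome 4 from 73869393 to 73871242. It had 848, 255 and 836 normalized counts in Vector replicates 1 to 3 and 892, 797 and 831 in shEZH2 replicates 1 to 3. Vector replicate 2 alone was low, while the other 5 libraries sat between 797 and 892. Its value was 30.3% of the mean of the other Vector libraries. The log2 fold change was 0.57 (standard error 0.43, 95% interval -0.45 to 1.58, limma adjusted p = 0.451). Without Vector replicate 2 it was -0.01, with an interval of -0.24 to 0.23, so a change of 1.5-fold lay outside the interval of the remaining 5 libraries. Without that library the intervals of CXCL1 and CXCL8 did not overlap. The difference between them was not itself tested.

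CXCL1 has near copies in CXCL2 and CXCL3, so reads could be split between them by the counting. In GENCODE v44 transcripts on GRCh37, the canonical CXCL1 transcript of 1174 bases shares an exact run of 77 bases with CXCL2 and of 55 bases with CXCL3. Of its 1125 windows of 50 bases, 5.33% were exact in CXCL2 and 0.533% in CXCL3. CXCL3 had 16.7, 4.66 and 20.4 normalized counts in Vector replicates 1 to 3 and 13.3, 4.79 and 14.3 in shEZH2 replicates 1 to 3. These values overlapped between the groups, and the log2 fold change of CXCL3 was -0.25 (standard error 0.64, limma adjusted p = 0.826).

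CCL2 encodes a chemokine for monocytes. It had 1, 0 and 0 reads in Vector replicates 1 to 3 and 2, 0 and 2 reads in shEZH2 replicates 1 to 3. A count of 0 allows up to 3 reads in a library from counting error alone, so every library lay at or under that floor and no fold is given.

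LIF encodes a cytokine of the family of IL6 that signals through LIFR and IL6ST and is known for its roles in stem cells, in wasting and in tumour stroma. The gene lies on the minus strand of chromosome 22 from 30240447 to 30246851. It had 1864, 1437 and 1873 normalized counts in Vector replicates 1 to 3 and 4213, 3580 and 3946 in shEZH2 replicates 1 to 3. The lowest shEZH2 library was above the highest Vector library by a wide margin. The mean was 1725 ± 249.6 (SD, n = 3) across Vector libraries and 3913 ± 318 (SD, n = 3) across shEZH2 libraries. LIF rose by 1.19 in log2 units (standard error 0.16, 95% interval 0.82 to 1.56, limma adjusted p = 0.0125), while 2.28% of all genes were higher after adjustment. The log2 fold change was 1.06 without Vector replicate 2 and 1.07 with the length trend removed. Left out one at a time, the libraries gave log2 fold changes of 1.06 to 1.254, and the adjusted p passed 0.05 when any shEZH2 replicate was the one left out, up to 0.112. LIF overlaps 2 antisense genes, AC004264.1 and LIF-AS1, with means of 52.4 and 4.12 normalized counts against 2819 for LIF.

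**Figure D2:**
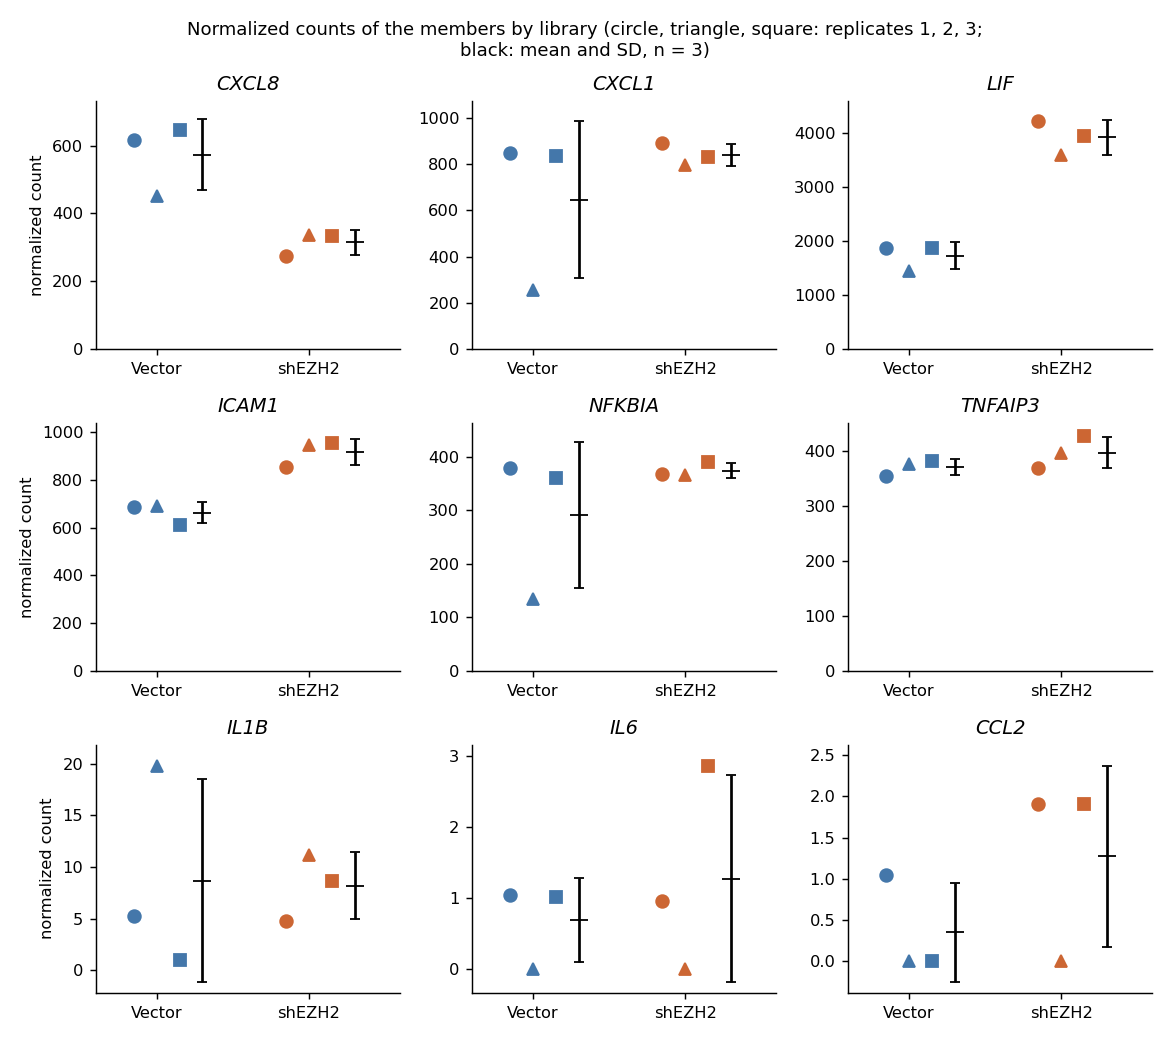
Normalized counts (vertical axes, linear, a separate scale for each gene) of the 9 genes read, in 3 Vector (blue) and 3 shEZH2 (orange) libraries; circles, triangles and squares are replicates 1, 2 and 3, and black marks give the mean and SD. LIF, CXCL8 and ICAM1 do not overlap between the groups, as was so for 34.8% of all genes tested. In CXCL1 and NFKBIA the triangle of Vector replicate 2, at 255 and 134, lies below all other points.

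IL6 encodes an inflammatory cytokine that shares the receptor chain IL6ST with LIF. It had 1, 0 and 1 reads in Vector replicates 1 to 3 and 1, 0 and 3 reads in shEZH2 replicates 1 to 3. Every library was again at or under the floor of 3 reads. The promoter of IL6 holds a kappaB consensus match, as do 5.91% of all promoters, and its bearing on these values was not tested. IL1B encodes a cytokine that itself activates NF-kB and is made mainly by myeloid cells. It had 5.23, 19.8 and 1.02 normalized counts in Vector replicates 1 to 3 and 4.76, 11.2 and 8.59 in shEZH2 replicates 1 to 3, from 1 to 17 reads a library. The groups overlapped, with Vector replicate 2 the highest of the 6. With no minimum on the mean, the log2 fold change of IL1B was 0.45, with an interval of -1.29 to 2.20 that leaves both directions possible (limma adjusted p = 0.804).

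The 7 leukocyte markers read had summed levels of 14.3 to 61.7 normalized counts in Vector and 27.7 to 36.7 in shEZH2 libraries, and 0 of 7 reached a mean of 10. PTPRC was the highest at 9.29, and LYZ averaged under 1. Vector replicate 2 had the highest sum, as it did for IL1B. The part of such transcripts in the IL1B values was not tested. Of fibroblast markers, 2 of 7 reached a mean of 10, and the sum was 176 to 246 in Vector and 251 to 315 in shEZH2 libraries, most of it from LUM. LUM was higher and COL1A2, the other marker above 10, was lower in shEZH2 libraries, with log2 fold changes of 0.74 and -0.83 that both passed the threshold, while COL3A1, DCN and PDGFRA averaged under 1. Endothelial markers summed to 29.5 to 74.5 and 29.5 to 34.3, with VWF the highest, and epithelial markers to 1309 to 1722 and 1570 to 1678, with KRT18 and CDH1 the highest. Their part in the values of the secreted genes was not tested.

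ICAM1 encodes an adhesion receptor that leukocytes bind through integrins. The gene lies on chromosome 19 from 10270835 to 10286615 on the plus strand. It had 686, 692 and 613 normalized counts in Vector replicates 1 to 3 and 856, 945 and 953 in shEZH2 replicates 1 to 3. Every shEZH2 library was above every Vector library, as was so in one direction or the other for 34.8% of all genes tested. The log2 fold change was 0.47 (standard error 0.13, 95% interval 0.17 to 0.77), with a limma p of 0.00720 and an adjusted p of 0.0872. ICAM1 was short of the threshold because its change was 1.38-fold. The log2 fold change stayed between 0.41 and 0.52 with each library left out, and was 0.34 with the length trend removed. Without Vector replicate 2 the limma adjusted p of ICAM1 was 0.00808, in a fit where 19.1% of all genes had one under 0.05.

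NFKBIA encodes IkB-alpha, the inhibitor that holds NF-kB dimers in the cytoplasm and that NF-kB itself induces. The gene lies on the minus strand of chromosome 14 from 35401511 to 35404749. It had 379, 134 and 359 normalized counts in Vector replicates 1 to 3 and 368, 365 and 390 in shEZH2 replicates 1 to 3. As with CXCL1, Vector replicate 2 alone was low, at 36.3% of the mean of the other Vector libraries. NFKBIA had a log2 fold change of 0.50 (standard error 0.38, 95% interval -0.37 to 1.38, limma adjusted p = 0.441), and without that library it was 0.02, with an interval of -0.24 to 0.28.

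TNFAIP3 encodes A20, which removes ubiquitin chains from NF-kB signalling complexes. The gene lies on chromosome 6 from 137867188 to 137883312 on the plus strand. It had 356, 376 and 383 normalized counts in Vector replicates 1 to 3 and 369, 396 and 427 in shEZH2 replicates 1 to 3. The groups overlapped and no library stood out. TNFAIP3 had a log2 fold change of 0.10 (standard error 0.13, 95% interval -0.21 to 0.40, limma adjusted p = 0.673), and a change of 1.5-fold lay outside this interval. An antisense gene, AL357060.1, overlaps TNFAIP3, with a mean of 36.4 normalized counts against 384.

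**Figure D3:**
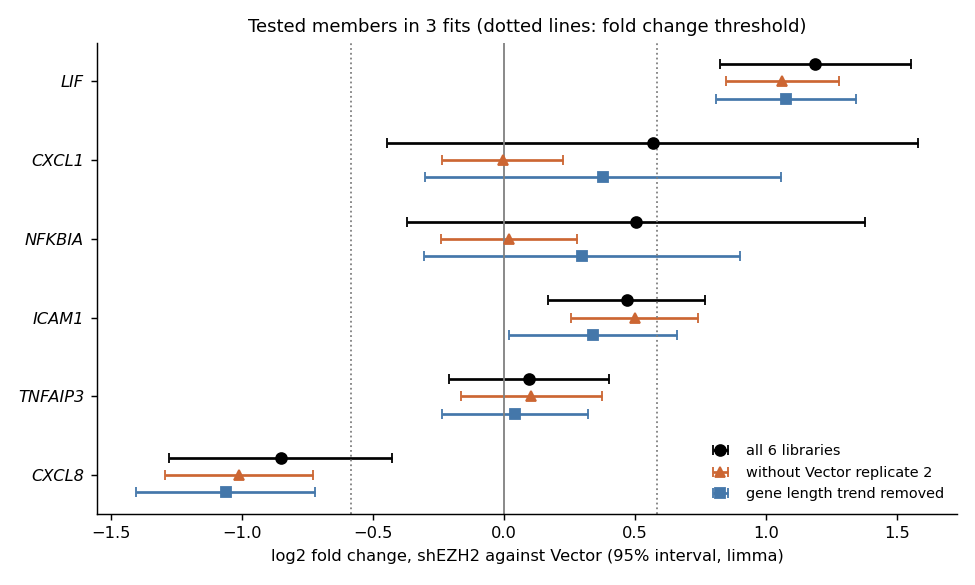
Log2 fold changes of the 6 tested members (horizontal axis, shEZH2 against Vector, 95% intervals from limma) with all 6 libraries, without Vector replicate 2 and with the trend along gene length removed; dotted lines mark a fold change of 1.5. LIF stays right of the upper line at 1.06 to 1.19 and CXCL8 left of the lower one at -1.06 to -0.85, while CXCL1 and NFKBIA move to -0.01 and 0.02 without Vector replicate 2.

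By exact permutation of the group labels in all 20 ways (two-sided), p was 0.1 for LIF, CXCL8, ICAM1 and EZH2, the smallest p that 3 libraries against 3 allow. The exact p was 0.6 for CXCL1, 0.4 for NFKBIA and 0.3 for TNFAIP3.

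The low values of CXCL1 and NFKBIA in Vector replicate 2 were set against genes of like length. That library deviated from the mean of Vector replicates 1 and 3 by -1.72 for CXCL1 and by -1.46 for NFKBIA on the log2 scale. The median deviation was -0.75 over the 772 genes within 1.25-fold of the length of CXCL1 (1296 bases) and -0.52 over the 2066 genes within 1.25-fold of that of NFKBIA (2373 bases). Of these, 19.8% and 10.5% deviated further down. CXCL8, whose length of 2274 bases is close to that of NFKBIA, deviated by -0.48, near the median of -0.54 of genes of its length. TNFAIP3, of 5051 bases, deviated by 0.03 and ICAM1, of 3706 bases, by 0.09. With the trend along length removed, the log2 fold change was 0.38 for CXCL1 and 0.30 for NFKBIA. The part of gene length in the remaining deviation was not tested.

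**Figure D4:**
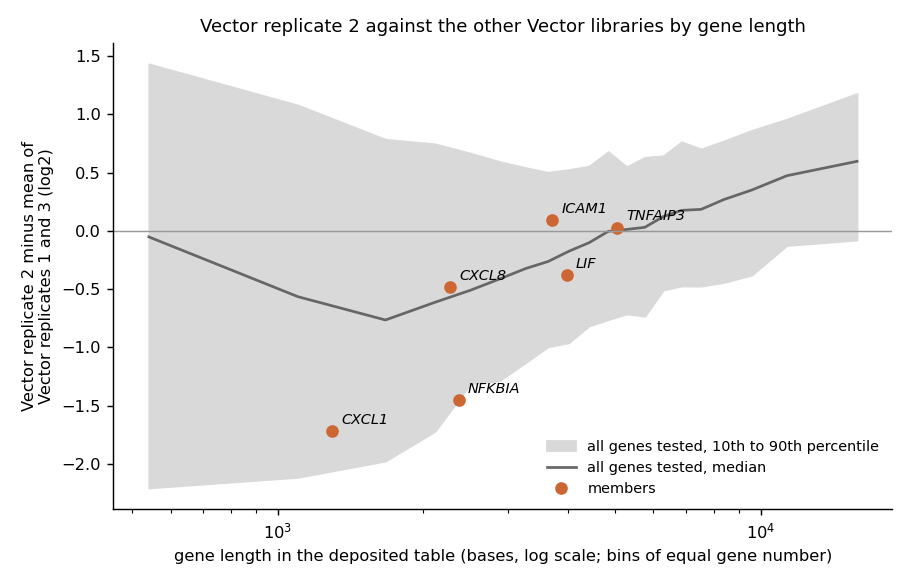
Log2 level in Vector replicate 2 minus the mean of Vector replicates 1 and 3 (vertical axis) by gene length in bases (horizontal axis, log scale), with the median and the 10th to 90th percentile of all tested genes in 20 bins and the 6 tested members as points. CXCL1 at -1.72 and NFKBIA at -1.46 lie below the median line, with 19.8% and 10.5% of genes of like length lower still. CXCL8, ICAM1, LIF and TNFAIP3 lie closer to the line.

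Levels between genes were compared per length, as RPKM, reads divided by the table's gene length and by the counted reads of the library. In Vector cells the order was CXCL1 with a level of 30.8 ± 15.7, LIF with 27.0 ± 3.29, CXCL8 with 15.6 ± 2.53, ICAM1 with 11.2 ± 0.888, NFKBIA with 7.56 ± 3.42 and TNFAIP3 with 4.58 ± 0.252 RPKM (SD, n = 3). The libraries of CXCL1 and LIF overlapped, as did those of NFKBIA and TNFAIP3, and the other neighbours in this order did not. Both overlaps came from Vector replicate 2 alone. In Vector replicates 1 and 3, CXCL1 had 39.9 and 39.8 RPKM against 28.7 and 29.1 for LIF, and NFKBIA had 9.74 and 9.34 RPKM against 4.30 and 4.68 for TNFAIP3. In shEZH2 cells the order was LIF with 63.8 ± 5.06, CXCL1 with 41.9 ± 2.51, ICAM1 with 16.03 ± 0.874, NFKBIA with 10.2 ± 0.206, CXCL8 with 8.95 ± 0.995 and TNFAIP3 with 5.09 ± 0.306 RPKM (SD, n = 3), with no overlap between neighbours. CXCL8 thus went from the third to the fifth level. IL1B had 0.178 and 0.171 RPKM in the Vector and shEZH2 means, and IL6 and CCL2 had at most 0.0412 in either.

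Several of the members are also known for AU-rich elements in the 3′ end of their mRNAs, which proteins such as ZFP36 bind to hasten decay. In canonical GENCODE v44 transcripts on GRCh37, the 3′ UTR held 9 ATTTA pentamers in CXCL8, 10 in CXCL2, 6 each in CXCL1, IL6 and IL1B, 7 in LIF, 5 in TNFAIP3, 3 in NFKBIA, 2 in ICAM1 and 1 in CCL2. The median over 19448 coding transcripts was 2, and 28.7% held 5 or more. Per kilobase of 3′ UTR, CXCL8 held 7.19 and LIF 2.19. For the 2 members past the threshold, the 30 bases of 3′ UTR densest in this pentamer are shown with each ATTTA in capitals.
CXCL8 (chr4:74608825-74608854 of GRCh37, plus strand): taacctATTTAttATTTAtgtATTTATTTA
LIF (chr22:30636511-30636540 of GRCh37, minus strand): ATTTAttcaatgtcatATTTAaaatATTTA

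The stretch of CXCL8 holds 4 pentamers and that of LIF 3. Whether such pentamers bear on the change of either gene was not tested. Of 6 genes that act on AU-rich mRNAs (ZFP36, ZFP36L1, ZFP36L2, KHSRP, HNRNPD and ELAVL1), 0 passed the threshold, against 14.6% of all genes. Their median log2 fold change was 0.01 against 0.04 over all genes tested. ZFP36L1, which promotes decay, had a log2 fold change of -0.57 (standard error 0.12), short of the fold threshold, with a limma adjusted p of 0.0499. ZFP36, which also promotes decay, went the other way at 0.51 (standard error 0.21, limma adjusted p = 0.196), and 0.28 without Vector replicate 2. Both were named after their values were seen, and the adjusted p of ZFP36L1 reached 0.225 with 1 library left out.

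Genes of NF-kB signalling and genes around the members were read from lists of 8 kinds, called pathway lists here. Like the members, the lists were chosen with earlier results of these data known. These lists also hold other secreted cytokines, receptors and signalling of the members, and genes acting on AU-rich mRNAs, which are not NF-kB components. Of 71 of their genes tested, 10 were higher and 6 lower at the threshold, which makes 14.1% and 8.45% against 7.55% and 7.07% of all genes, and their median log2 fold change was 0.02. Without Vector replicate 2 the counts were 8 and 6 of 71, against 12.8% of all genes in either direction, and the median was -0.04. The list genes with a limma adjusted p under 0.05 were CHUK, NFKBIZ, TLR4, BIRC3, GADD45B, IL7, CSF1 and ZFP36L1. For each, the adjusted p passed 0.05 with some library left out. The highest value by gene ran from 0.0975 for BIRC3 to 0.225 for ZFP36L1.

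Among the subunits of NF-kB and of the IKK complex, all 8 had log2 fold changes below 0. Their median was -0.37, against 0.04 over all genes tested. At the threshold 2 of the 8 fell, against 7.07% of all genes. CHUK encodes the kinase IKK-alpha. It had 784, 757 and 851 normalized counts in Vector replicates 1 to 3 and 348, 442 and 387 in shEZH2 replicates 1 to 3. All shEZH2 libraries were far below the Vector libraries, and CHUK fell by 1.03 in log2 units (standard error 0.14, limma adjusted p = 0.0146). REL, the c-Rel subunit, had 138, 235 and 133 in Vector replicates 1 to 3 and 70.5, 125 and 94.5 in shEZH2 replicates 1 to 3. It fell by 0.79 (standard error 0.29, limma adjusted p = 0.170), and its log2 fold change of -0.52 with Vector replicate 2 left out was short of the threshold. RELB, partner of the noncanonical subunit NFKB2, was just short of it, with 495, 403 and 408 against 339, 235 and 307, and a log2 fold change of -0.58 (limma adjusted p = 0.122) that was -0.63 and past the threshold without Vector replicate 2. IKBKB, the kinase IKK-beta, had a log2 fold change of -0.53 (limma adjusted p = 0.0671). With the length trend removed IKBKB was at -0.35, while RELB moved the other way, to -0.75. The main activating subunit RELA was at -0.13, NFKB1 at -0.13, NFKB2 at -0.21 and IKBKG, the scaffold of IKK, at -0.16. None of these was past the threshold. Their standard errors were 0.12 to 0.14 and their 95% intervals all included 0, so their direction is not settled. In 5 of the 8 (CHUK, REL, RELB, IKBKB and RELA) Vector and shEZH2 libraries did not overlap, against 34.8% of all genes tested.

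Of 11 inhibitors and feedback genes, all tested, 1 fell and 0 rose, with a median log2 fold change of -0.08. The share lower, 9.09%, was near the 7.07% of all genes, and 7.55% of all genes were higher. NFKBIZ encodes a nuclear IkB protein that NF-kB induces and that is needed for some secondary targets. It had 2584, 2320 and 2661 normalized counts in Vector replicates 1 to 3 and 1330, 1484 and 1340 in shEZH2 replicates 1 to 3. NFKBIZ fell by 0.86 in log2 units (standard error 0.13, limma adjusted p = 0.0177), about as far as CXCL8, and by 0.92 without Vector replicate 2.

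Of 16 tested receptors and adaptors of 20 listed, 2 (12.5%) were higher and 0 lower, against 7.55% and 7.07% of all genes. TLR4, the receptor for bacterial lipopolysaccharide, had 351, 435 and 380 normalized counts in Vector replicates 1 to 3 and 594, 779 and 722 in shEZH2 replicates 1 to 3. TLR4 rose by 0.84 in log2 units (standard error 0.16, limma adjusted p = 0.0338). TRADD, an adaptor of the TNF receptor, rose by 0.61 (standard error 0.26, limma adjusted p = 0.214), and its log2 fold change of 0.37 without Vector replicate 2 was short of the threshold. Of 8 ligands, 1 was tested. TNFSF12, which encodes TWEAK, rose by 0.89 in log2 units (standard error 0.26, limma adjusted p = 0.105), from 36.4 ± 8.49 to 67.6 ± 13.2 normalized counts (SD, n = 3). TNF, named after its values were seen, was at 0, 0 and 2.04 normalized counts in Vector replicates 1 to 3 and at 0 in each shEZH2 library.

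**Figure D5:**
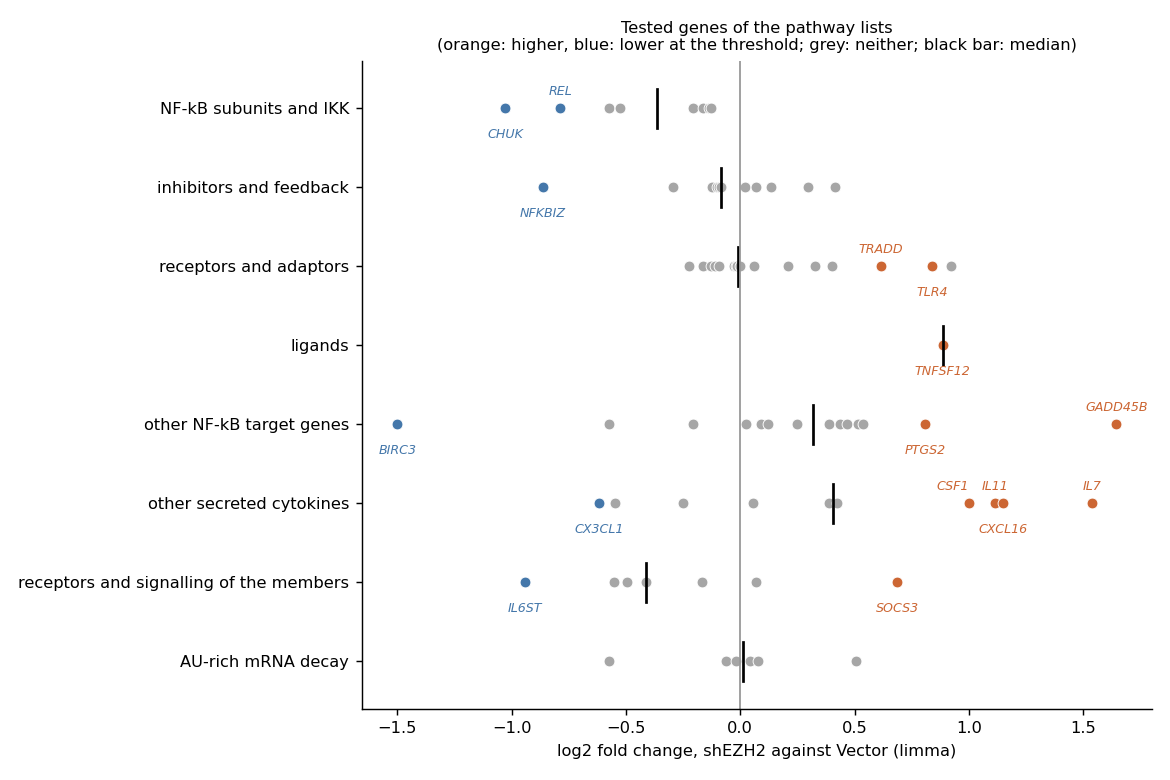
Log2 fold change (horizontal axis, shEZH2 against Vector) of each tested gene of the 8 pathway lists, 1 line per list; orange and blue points passed the threshold as higher and lower, grey points did not, and black bars are medians. All 8 points of the subunits and IKK lie left of 0, but the 95% intervals of RELA, NFKB1, NFKB2 and IKBKG include 0. The other lists spread to both sides except the ligands, where 1 gene was tested.

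Other target genes of NF-kB went both ways. Of 14 tested of 18 listed, 2 rose and 1 fell, which makes 14.3% and 7.14% against 7.55% and 7.07% of all genes. Their median log2 fold change was 0.32, and 0.01 without Vector replicate 2. BIRC3, an inhibitor of apoptosis that NF-kB induces, had 274, 297 and 251 normalized counts in Vector replicates 1 to 3 and 76.2, 115 and 101 in shEZH2 replicates 1 to 3. BIRC3 fell to 0.354 of its Vector level (standard error of the log2 fold change 0.19, limma adjusted p = 0.0118). This was the farthest fall among the 71 tested genes of the pathway lists. GADD45B, a stress sensor, had 84.7, 41.9 and 112 in Vector replicates 1 to 3 and 262, 200.4 and 240 in shEZH2 replicates 1 to 3. GADD45B rose by 1.65 (standard error 0.34, limma adjusted p = 0.0446), and by 1.247 without Vector replicate 2. PTGS2, which encodes COX-2, rose by 0.81 (standard error 0.30, limma adjusted p = 0.164) from 24.0 normalized counts, and its 0.57 without Vector replicate 2 was short of the threshold.

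Of 10 tested of 20 other secreted cytokines, 4 rose and 1 fell, which makes 40% and 10% against 7.55% and 7.07% of all genes. IL7, a growth factor for lymphocytes, had 18.8, 21.0 and 20.4 normalized counts in Vector replicates 1 to 3 and 50.5, 57.5 and 74.5 in shEZH2 replicates 1 to 3. IL7 rose by 1.54 in log2 units (standard error 0.24, limma adjusted p = 0.0204). IL11, which like LIF signals through IL6ST, had 78.4, 46.6 and 83.5 in Vector replicates 1 to 3 and 172, 108 and 171 in shEZH2 replicates 1 to 3. IL11 rose by 1.11 (standard error 0.29, limma adjusted p = 0.0800). The chemokine CXCL16 rose by 1.15 (limma adjusted p = 0.0836). CSF1, which sustains macrophages, rose by 1.00 (limma adjusted p = 0.0338), and CX3CL1, a chemokine made as a membrane protein, fell by 0.62 (limma adjusted p = 0.0545). CSF1 and CX3CL1 were named after their values were seen. The median log2 fold change of the 10 was 0.41, and -0.23 without Vector replicate 2, which turned its sign, while 4 higher and 1 lower gene were counted in both fits.

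On the receiving side of the members, 1 of 7 tested genes rose and 1 fell at the threshold. Each makes 14.3%, against 7.55% higher and 7.07% lower of all genes. Their median log2 fold change was -0.41, and -0.26 without Vector replicate 2. In 5 of the 7 the groups did not overlap, against 34.8% of all genes tested. IL6ST encodes gp130, the signalling chain that LIF, IL6 and IL11 share. It had 4076, 6386 and 3917 normalized counts in Vector replicates 1 to 3 and 2025, 2927 and 2425 in shEZH2 replicates 1 to 3, with no overlap. IL6ST fell by 0.94 in log2 units (standard error 0.23, limma adjusted p = 0.0689), and by 0.72 without Vector replicate 2, its highest library. SOCS3, a feedback inhibitor of this pathway that STAT3 induces, had 118, 97.8 and 126 against 205, 180 and 167 normalized counts. SOCS3 rose by 0.69 (standard error 0.17, limma adjusted p = 0.0734), and its log2 fold change of 0.58 without Vector replicate 2 was just short of the threshold. LIFR and STAT3 had log2 fold changes of -0.17 and 0.07, with limma adjusted p of 0.702 and 0.837. IL6R, JAK1 and JAK2 were at -0.50, -0.41 and -0.55, short of the threshold, with limma adjusted p of 0.0865, 0.206 and 0.164. LIFR, STAT3, IL6R, JAK1 and JAK2 were named after their values were seen. LIFR was at 0.11 without Vector replicate 2, which turned its sign. LIF transcripts were thus higher while transcripts of the shared receptor chain were lower, in the same libraries.

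The genes most like each called member over the 6 libraries were named by Pearson's r on the log2 scale among genes averaging 50 or more normalized counts, as a description. For LIF they were GNB5, LINC00665 and ZNF784, each with r = 0.998 to 0.999, and 397 of 11890 genes had r over 0.95. For CXCL8 they were TCEA1, NFIL3 and PHLDA1, with r of 0.992 to 0.997, and 134 genes had r over 0.95. All 6 points share the same 2 groups, so this likeness carries no p.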

How the data were processed

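The members and gene lists were chosen with earlier results of these data known. Reads were counted with featureCounts v1.5.0-p3 and divided by size factors from DESeq2 1.20.0, per the labels and the study's methods. The deposited values are thus a signal per gene and library, called normalized counts here. The aligner is not given in the sources used here, and the submitters' processing notes name hg19, while the table's gene coordinates are GRCh38. The authors also deposited group means, log2 fold changes and p-values of their own comparison, which were not used.

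All 6 library columns were used and 0 others left out. In each library, values divided by 1 step gave whole reads for 100% of genes (within 0.001). To compare the groups, limma 3.58.1 (mean-variance trend) was fitted to log2(normalized count + 1) over genes with a mean of at least 10, with Benjamini-Hochberg adjustment over 15251 genes. Fold changes on this scale understate those of low genes. Calls used the study's threshold (log2 fold change beyond 0.585). The rule for named genes took EZH2, the members, all subunits and IKK genes, CXCL3 as a near copy, up to 3 called genes of each other list with the largest changes, the 3 genes most like each called member, and the highest marker of each cell type. TNF, ZFP36, ZFP36L1, CSF1, CX3CL1, LIFR, STAT3, IL6R, JAK1, JAK2 and the other markers were named after their values were seen. Reads per kilobase used the table's gene length. The alternatives were edgeR 4.0.16, DESeq2 1.42.0, TMM scaling, other pseudocounts (0.1 and 5) and minimums (none and 50), a block on replicate number, a fold threshold, removal of the length trend by loess, and each library left out. The limma and edgeR fits and the length correction were run on simulated counts that held no trend along gene length. Whether the correction removes such a trend was thus not tested. R 4.3.3 and Python were used.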

Additional observations from a re-analysis of the deposited data

How the results depend on the processing

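LIF stayed higher and CXCL8 lower at the study's threshold under all 15 alternatives in scaling, test, filter, pseudocount, block and left-out libraries that kept the fold of 1.5, as EZH2 did. With a log2 fold change above 1 required, LIF was counted and CXCL8 was not (0 members lower). Under this rule, stricter by construction, 4 genes of the pathway lists were higher and 2 lower. The 2 members with an adjusted p under 0.05 became 1 with TMM scaling, with no minimum and with a replicate block, LIF in each case. The count ran from 0 to 3 with each library left out, 0 without any one shEZH2 replicate and 3 without Vector replicate 2, where ICAM1 was added and 19.1% of all genes had an adjusted p under 0.05, against 4.12% with all libraries. Those fits have 5 libraries, and beyond that the cause was not tested. The log2 fold change of CXCL1 ran from -0.0051 to 0.86 with each library left out, turning its sign without Vector replicate 2, and it was not past the threshold in any fit. Over the same 15251 genes, TMM scaling moved the median log2 fold change from 0.04 to 0.07 and that of TNFAIP3 from 0.10 to 0.13.

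Same-numbered libraries deviated from their group means with correlations of 0.28, 0.22 and -0.11 for replicates 1, 2 and 3, so the numbers were not taken as pairs. With the replicate block, 1322 genes were higher and 1112 lower at the threshold, against 1151 and 1078 without it, and adjusted calls went from 629 to 424. The highest correlation of Vector replicate 3 was with shEZH2 replicate 1, so not every library matched its own number best. Adjusted calls over all genes were 1328 with DESeq2, 1286 with the length trend removed, and 4 to 2888 with each library left out, the lowest without shEZH2 replicate 3 and the highest without Vector replicate 2. With a log2 fold change above 1, 463 genes were higher and 335 lower. Reads limit IL6, CCL2 and IL1B, which had at most 17 in a library.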
